A study of Mus musculus with 6 samples.

Results

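The genes described here are 8 genes that are widely used to read out canonical Wnt signalling: Axin2, Lef1, Tcf7, Nkd1, Nkd2, Sp5, Rnf43 and Znrf3. They were picked by name as known targets, with earlier results of these data known. All 8 were found once among the 43346 genes of the deposited count table. The study measured RNA of limb bones from 1-day-old C57BL/6 mouse pups by RNA-seq, in 3 libraries labelled Hdac3 CKO and 3 labelled WT. Hdac3 encodes a histone deacetylase of the nuclear receptor corepressor complexes. The series names the knockout after Prx1, a transcription factor gene whose limb enhancer commonly drives Cre in the progenitors of bone, cartilage and tendon, and not in blood cells or muscle fibres. The labels do not give the alleles, the Cre status of the WT pups, their sex or litter, or whether a library came from 1 pup or from several. Replicates were therefore numbered within a genotype, and p-values measure the spread between these libraries only, which may be technical.

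In the canonical Wnt pathway, secreted Wnt proteins bind Frizzled and Lrp5 or Lrp6 receptors, the complex that degrades beta-catenin is switched off, and beta-catenin enters the nucleus. There it joins DNA-binding proteins of the TCF/LEF family and turns on target genes, while Groucho (Tle) corepressors, which can recruit histone deacetylases, hold the same genes down in its absence. In the skeleton this pathway favours osteoblasts over chondrocytes. Of the 8 genes, Lef1 and Tcf7 encode TCF/LEF factors themselves, and Sp5 encodes a zinc finger factor that represses other Wnt targets. The other 5 encode feedback inhibitors. Axin2 is a scaffold of the beta-catenin degrading complex, Nkd1 and Nkd2 bind Dishevelled, and Rnf43 and Znrf3 are membrane ubiquitin ligases that remove Frizzled from the cell surface.

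TCF/LEF factors bind sites close to the letters CTTTG followed by 2 letters that are each A or T. The 4 motifs of this form were searched on both strands in the 250 bases before each annotated start, from RefSeq sequences of build GRCm38.p6, in which 7 of the 8 genes had an entry and Znrf3 had none. Of 12 windows belonging to the 7 genes, 2 held a match, 1 of the 4 windows of Lef1 and the window of Sp5. All windows of the table gave 14.8% with a match (4874 of 32851) and 1.43% with 2 or more matches. Sp5 was the member with 2 matches. Its window is shown with those of Axin2, the most used readout of the pathway, and Nkd2, the gene with the smallest p below, each on the strand of its gene with matches in capitals. AACAAAG is CTTTGTT read on the opposite strand.
Sp5, chr2:70474673-70474922, plus strand: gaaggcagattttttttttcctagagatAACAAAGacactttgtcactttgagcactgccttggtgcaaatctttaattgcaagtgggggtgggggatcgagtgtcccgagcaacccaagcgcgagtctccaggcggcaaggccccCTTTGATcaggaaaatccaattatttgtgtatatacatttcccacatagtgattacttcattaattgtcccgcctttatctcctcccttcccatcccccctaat
Axin2, chr11:108920099-108920348, plus strand: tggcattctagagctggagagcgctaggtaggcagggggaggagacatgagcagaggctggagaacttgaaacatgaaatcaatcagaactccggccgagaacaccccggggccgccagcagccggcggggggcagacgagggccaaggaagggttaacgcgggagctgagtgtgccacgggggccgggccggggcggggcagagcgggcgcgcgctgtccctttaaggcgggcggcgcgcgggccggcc
Nkd2, chr13:73847632-73847881, minus strand: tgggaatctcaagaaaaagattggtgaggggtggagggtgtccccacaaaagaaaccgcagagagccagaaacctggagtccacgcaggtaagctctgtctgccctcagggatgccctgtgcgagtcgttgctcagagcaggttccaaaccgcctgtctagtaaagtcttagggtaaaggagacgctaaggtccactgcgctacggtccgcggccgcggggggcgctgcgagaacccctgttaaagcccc
The windows of Axin2 and Nkd2 held none of the 4 motifs. A match is a description of letters, and TCF/LEF sites that lie elsewhere in a gene were not searched.

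Total counts ranged over 43389262 to 46926855 in the Hdac3 CKO libraries and over 46156691 to 50927978 in the WT libraries. Values per library below are in CPM, the usual per-library scaling of counts to a common total, after TMM normalization, which corrects library totals for differences in RNA composition. Hdac3, the targeted gene, stood at 31.8, 29.4 and 28.3 CPM in Hdac3 CKO and at 48.4, 47.4 and 50.3 CPM in WT, so that its log2 fold change was -0.71 ± 0.12 (SE). The quasi-likelihood test of edgeR gave Hdac3 a Benjamini-Hochberg adjusted p of 0.027. The groups did not overlap, while the adjusted p was 0.068 to 0.126 without WT replicate 1, 2 or 3 or Hdac3 CKO replicate 2 or 3. A gene was called at an adjusted p under 0.05, which 1.18% of the 20210 genes tested reached (142 higher, or 0.703%, and 96 lower, or 0.475%). That count of 238 was 23 without WT replicate 1, 35 without WT replicate 2, 46 without Hdac3 CKO replicate 3 and 105 without WT replicate 3. All 10 osteoblast markers listed were detected in every library. Markers of cartilage summed to 17635 CPM in Hdac3 CKO replicate 3 and 8992 CPM in WT replicate 3 (the cartilage-rich libraries), and to between 2496 and 3160 CPM in the other libraries. Markers of skeletal muscle, a soft tissue that the bones were cleaned of, summed to 30774 to 45653 CPM in Hdac3 CKO and 27707 to 32406 CPM in WT. In bulk bone RNA, fewer cells of a type and less RNA per cell cannot be told apart.

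None of the Wnt target genes was called. Sp5 was too low to be tested. Of the other 7, 0 rose (against 0.703% of all tested genes) and 0 fell (against 0.475%) in edgeR's quasi-likelihood test, and DESeq2 (4.29% of all tested genes) and limma-voom also called 0. At an unadjusted p under 0.05 there was 1, Nkd2, where 15.0% of all tested genes had such a p. Nkd2 was also the only 1 of the 7 whose groups did not overlap, where 22.5% of all tested genes did not. Their log2 fold changes ran between -0.39 and 0.39 with a median of 0.045, and the median of all tested genes was 0.00098. Over the 15 alternatives, Axin2 and Nkd2 stayed above 0 and Tcf7 and Znrf3 below 0, while Lef1, Nkd1 and Rnf43 lay on either side. Which gene had an unadjusted p under 0.05 depended on the scaling: with library totals alone, which moved the median of all genes to -0.18, Tcf7 (-0.58) and Znrf3 (-0.42) had one, and Nkd2 (0.21) and Axin2 (0.08) did not. The 95% interval of each of the 7 lay within a 2-fold change in either direction, as it did for 68.1% of all tested genes. Changes smaller than 2-fold lie within these intervals. The intervals come from the fit, which estimates the spread with 4 residual degrees of freedom and moderates it over all genes.

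**Figure D1:**
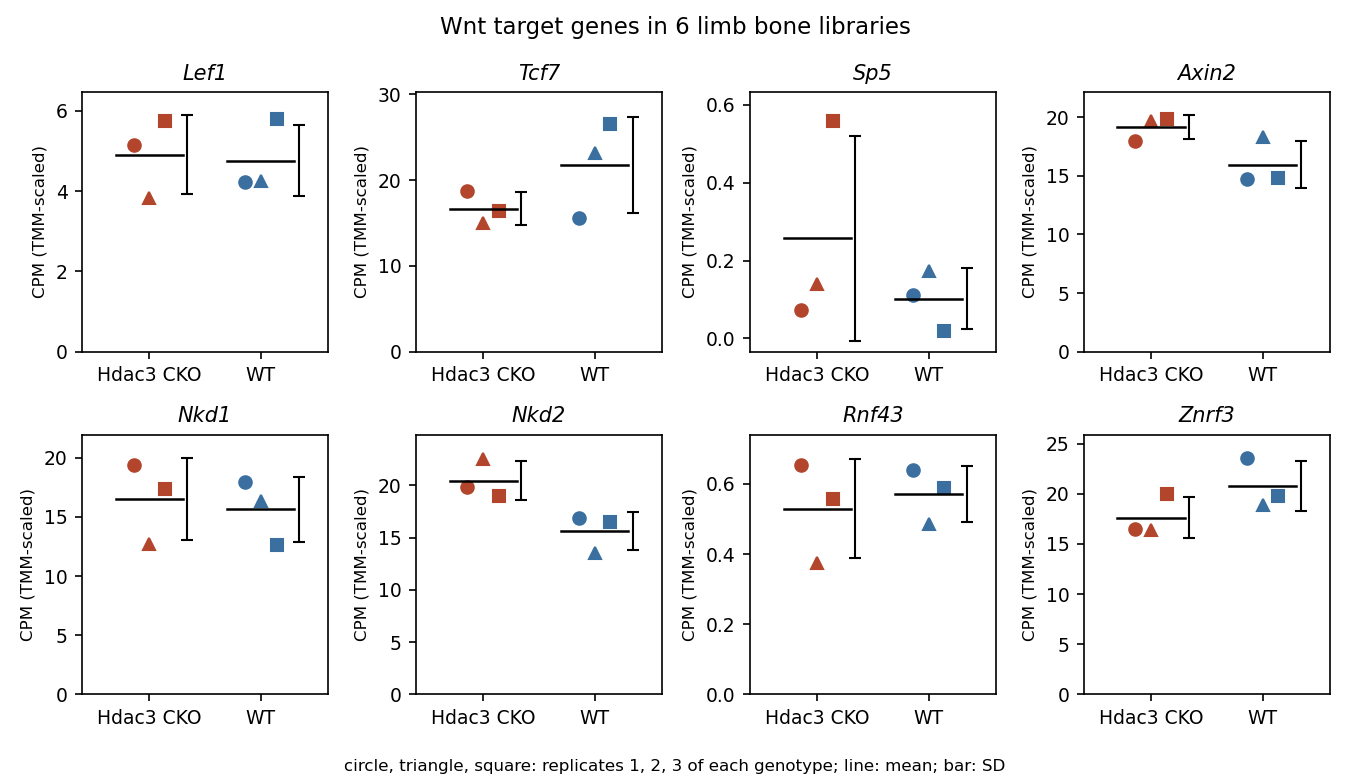
TMM-scaled counts (CPM) of the 8 Wnt target genes in each limb bone library, Hdac3 CKO left and WT right, with the mean (line) and SD (bar) of 3 libraries. Nkd2 is the gene whose groups do not overlap, with 19.0 CPM or more in Hdac3 CKO and 16.9 CPM or less in WT, and the Sp5 mean of Hdac3 CKO rests on replicate 3.

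Among the transcription factors, Lef1 (ENSMUSG00000027985, mm10 chromosome 3, 131110471 to 131224356) stood at 5.16, 3.83 and 5.74 CPM in Hdac3 CKO and at 4.23, 4.26 and 5.80 CPM in WT. The groups lay on top of each other, and the highest library was WT replicate 3. The log2 fold change was 0.04 ± 0.22 (SE; 95% interval -0.46 to 0.55). It lay below 0 without Hdac3 CKO replicate 1 or 3 or WT replicate 1 or 2. The adjusted p was 0.943 in edgeR's quasi-likelihood test. Exons of the antisense gene Gm43352 cover 13.7% of the exon bases of Lef1 in GENCODE M21, and the strand setting of the counting is not given in the sources used here, so reads of the pair cannot be told apart.

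Tcf7 (ENSMUSG00000000782, chromosome 11, 52252371 to 52283014) encodes TCF1 and had the lowest log2 fold change of the 7 genes. It stood at 18.7, 14.97 and 16.4 CPM in Hdac3 CKO and at 15.6, 23.2 and 26.6 CPM in WT. WT replicate 1 lay within the range of Hdac3 CKO, while WT replicates 2 and 3 lay above all 3 Hdac3 CKO libraries. The log2 fold change was -0.39 ± 0.20 (SE; 95% interval -0.83 to 0.06), and the adjusted p was 0.396 in edgeR's quasi-likelihood test. Without WT replicate 1 it was -0.58 and without WT replicate 3 it was -0.22, neither of them called. A two-sided exact permutation test of the 6 CPM values gave p = 0.3, where 3 libraries against 3 cannot give less than 0.1.

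Lef1 and Tcf7 are also known as lymphocyte genes, Tcf7 and Lef1 in T cells and Lef1 in early B cells. Of 10 B lymphoid markers, 8 were tested, 1 fell (against 0.475% of all tested genes) and 0 rose. Their summed level was 3.52 to 4.55 CPM in Hdac3 CKO and 8.63 to 23.1 CPM in WT. The highest sum was that of WT replicate 3, which also held the highest Tcf7 and Lef1 values. Of 10 T lymphoid markers, 4 were tested and 0 rose or fell, with sums of 8.38 to 12.3 CPM in Hdac3 CKO and 11.1 to 14.6 CPM in WT. The highest T lymphoid sum was that of WT replicate 1, which held the lowest Tcf7 (15.6 CPM) and Lef1 (4.23 CPM) of the WT libraries. In Hdac3 CKO replicate 3, Lef1 stood at 5.74 CPM, close to the 5.80 CPM of WT replicate 3, with a B lymphoid sum of 4.18 CPM. None of the 20 markers was at 0 in all libraries, and 7 of the B lymphoid and 6 of the T lymphoid markers had a count in every library. The part of lymphoid RNA in the Tcf7 and Lef1 values was not tested.

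Sp5 (ENSMUSG00000075304, chromosome 2, 70474923 to 70477729) was barely detected. It had 3, 6 and 24 counts in Hdac3 CKO and 6, 9 and 1 counts in WT. Of its 49 counts in all, 24 came from Hdac3 CKO replicate 3, and the groups overlapped. Hdac3 CKO replicate 3 and WT replicate 3, the libraries richest in cartilage markers, held the highest and the lowest count. With no filter on low counts edgeR's quasi-likelihood test gave a log2 fold change of 1.30 and an adjusted p of 0.567.

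The feedback inhibitors inside the cell included the 2 genes with the highest log2 fold changes of the 7 tested. Axin2 (ENSMUSG00000000142, chromosome 11, 108920349 to 108950783) stood at 18.0, 19.7 and 19.8 CPM in Hdac3 CKO and at 14.7, 18.3 and 14.8 CPM in WT. The mean was 19.2 ± 1.0 CPM in Hdac3 CKO and 16.0 ± 2.0 CPM in WT (SD, n = 3 each). WT replicate 2 lay just above Hdac3 CKO replicate 1, so the groups overlapped. The log2 fold change was 0.26 ± 0.15 (SE; 95% interval -0.06 to 0.59), and the adjusted p was 0.421 in edgeR's quasi-likelihood test. The antisense gene Gm11670 covers 3.80% of the exon bases of Axin2.

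Nkd2 (ENSMUSG00000021567, chromosome 13, 73818534 to 73847631) stood at 19.9, 22.5 and 19.0 CPM in Hdac3 CKO and at 16.9, 13.5 and 16.5 CPM in WT. All 3 Hdac3 CKO libraries lay above all 3 WT libraries. The ratio of the fitted levels was 1.31 (95% interval 1.04 to 1.65), a log2 fold change of 0.39 ± 0.15 (SE). Its unadjusted p was 0.0273 and its adjusted p 0.269 in edgeR's quasi-likelihood test, and the exact permutation test (two-sided) of the 6 CPM values gave p = 0.1. The adjusted p was 0.201 to 0.602 over 15 alternatives, so the gene was called under none of them.

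Nkd1 (ENSMUSG00000031661, chromosome 8, 88521344 to 88594887), the other naked cuticle homologue, varied more within each genotype than Nkd2 did. It stood at 19.4, 12.7 and 17.4 CPM in Hdac3 CKO and at 18.0, 16.3 and 12.6 CPM in WT. The lowest values of the groups were nearly equal, and the highest library of each group was 1.53 times its lowest in Hdac3 CKO and 1.42 times in WT. The log2 fold change was 0.08 ± 0.20 (SE; 95% interval -0.36 to 0.52), and its sign changed with the scaling and with the library left out. The Nkd2 to Nkd1 ratio of RPKM was 0.964, 1.67 and 1.03 in Hdac3 CKO and 0.888, 0.781 and 1.23 in WT, so the groups overlapped in it as well.

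The membrane ubiquitin ligases had lower means in Hdac3 CKO but did not pass the test. Znrf3 (ENSMUSG00000041961, chromosome 11, 5276324 to 5444847) stood at 16.5, 16.4 and 19.9 CPM in Hdac3 CKO and at 23.5, 18.9 and 19.8 CPM in WT. Hdac3 CKO replicate 3 lay within the WT range, and the other Hdac3 CKO libraries lay below it. The log2 fold change was -0.24 ± 0.15 (SE; 95% interval -0.58 to 0.10), and the adjusted p was 0.482 in edgeR's quasi-likelihood test. Without WT replicate 1 the log2 fold change of Znrf3 was -0.14. Rnf43 (ENSMUSG00000034177, chromosome 11, 87662722 to 87735539) was close to the limit of detection, with 27, 16 and 24 counts in Hdac3 CKO and 34, 25 and 29 counts in WT. Its log2 fold change was -0.11 ± 0.35 (SE; 95% interval -0.89 to 0.67), the widest interval of the 7, and without Hdac3 CKO replicate 2 it was 0.08.

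**Figure D2:**
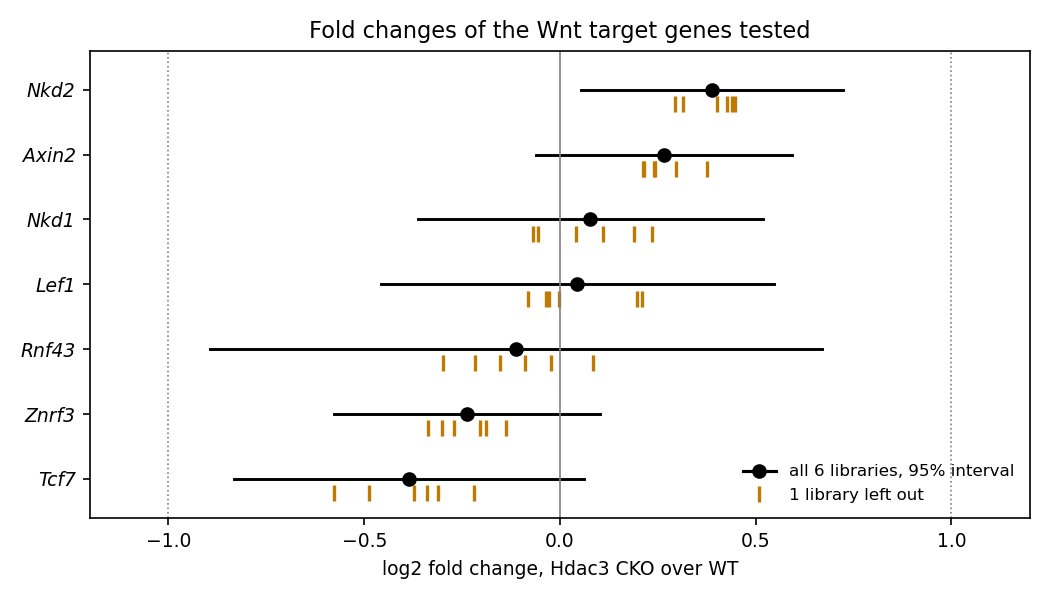
Log2 fold change of Hdac3 CKO over WT for the 7 Wnt target genes tested, with the 95% interval (black) and the values with 1 library left out (orange ticks); dotted lines mark a 2-fold change. All intervals lie between the dotted lines, and that of Nkd2, 0.05 to 0.72, is the one that does not include 0.

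Levels of different genes were compared in the RPKM values deposited by the authors, which divide reads by gene length and a library size. That library size was not the total count given above. Tcf7 was the highest of the 8, at 4.81 ± 0.57 RPKM in Hdac3 CKO and 6.96 ± 2.16 RPKM in WT (SD, n = 3 each). Its lowest library lay above every value of the other 7 genes. Nkd2, Nkd1, Axin2 and Znrf3 followed with means over the 6 libraries of 3.003, 2.85, 2.53 and 1.93 RPKM, and within these 4 each gene overlapped with the next in the order. Lef1 averaged 0.443 RPKM and overlapped with no neighbour in that order. Sp5 and Rnf43 both averaged 0.066 RPKM and could not be ordered, with Sp5 above Rnf43 in 3 of 6 libraries. Of the TCF/LEF pair, Tcf7 stood 9.39 to 12.9 times above Lef1 per length in Hdac3 CKO and 12.2 to 17.9 times in WT. On this RPKM scale Znrf3 did not overlap between the groups, at 1.58 to 1.89 RPKM in Hdac3 CKO and 2.103 to 2.25 RPKM in WT, unlike in TMM-scaled CPM. Nkd2 did not overlap either, at 2.997 to 3.63 RPKM in Hdac3 CKO and 2.56 to 2.92 RPKM in WT. The share of all tested genes without overlap in RPKM was not counted. Their median log2 fold change was -0.06 on log2(RPKM + 1) and -0.12 on log2(RPKM + 0.1). The adjusted p of Znrf3 was not under 0.188 over 15 alternatives.

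**Figure D3:**
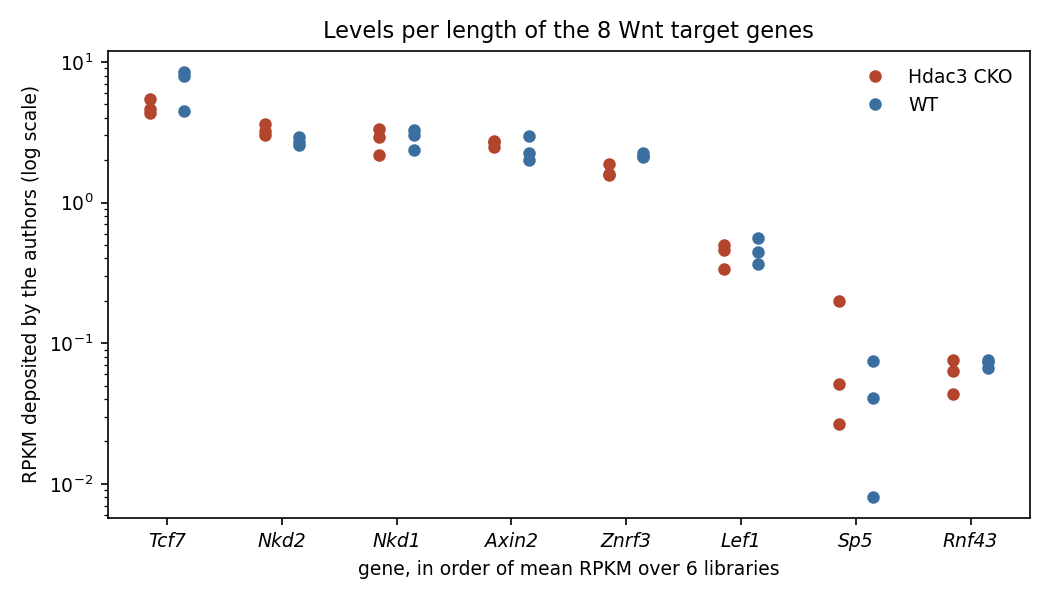
RPKM values of the 8 genes in each library on a log scale, Hdac3 CKO left and WT right of each position, in order of the mean over 6 libraries. The genes span about 2 orders of magnitude, with Tcf7 at 4.34 RPKM or more in every library and Sp5 and Rnf43 at 0.198 RPKM or less.

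The 7 genes did not share 1 library profile. Of these genes, 4 had their lowest CPM in Hdac3 CKO replicate 2 (Lef1, Tcf7, Rnf43 and Znrf3), while Nkd2 was highest there. WT replicate 3 held the highest Lef1 and Tcf7 values and the lowest Nkd1 value. For Nkd2, the gene with the smallest p, the nearest of 12638 genes in log2 CPM over the 6 libraries, each centred on its own mean, were H2-Ke6, Lpar2, Ggt7, Tssc4 and Dos, with a root mean square difference of 0.026 to 0.049 on the log2 scale. None of these 5 was called. They were picked for this closeness, so log2 fold changes near that of Nkd2, here 0.34 to 0.44, follow from the choice.

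Around the 8 genes, the remaining pathway was read from 6 lists that hold 83 different genes, 75 of them tested. In all, 4 of the 75 were called (5.33%, against 1.18% of all tested genes). The lists were chosen with earlier results of these data known, so this share is not independent of the result. The count was 1 without WT replicate 1 or WT replicate 2, and 0 without both cartilage-rich libraries. That last fit, of 4 libraries, called 0 of all tested genes. Of 13 tested Wnt antagonists, secreted or at the membrane, Sfrp4 and Apcdd1 rose (against 0.703% of all tested genes) and Wif1 fell (against 0.475%). The other 10 did not pass, and the median log2 fold change of the 13 was 0.16. Sfrp4, a decoy receptor for Wnt proteins, stood at 52.0, 74.6 and 45.3 CPM in Hdac3 CKO and at 12.9, 14.8 and 17.9 CPM in WT. It rose by 1.92 ± 0.21 (log2, SE; adjusted p 0.0077 in edgeR's quasi-likelihood test), and it was called whichever single library was left out, but not without both cartilage-rich libraries (0.082). Apcdd1, a membrane inhibitor of Wnt receptors and itself a reported Wnt target, stood at 99.4, 60.5 and 44.0 CPM in Hdac3 CKO and at 12.7, 16.7 and 19.7 CPM in WT.

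Apcdd1 rose by 2.06 ± 0.29 (log2, SE; adjusted p of 0.018), and the adjusted p was 0.071 without WT replicate 1, 0.073 without WT replicate 2 and 0.082 without both cartilage-rich libraries, in edgeR's quasi-likelihood test. The 95% interval of its ratio, 2.65 to 6.52, lay above the intervals of all 7 Wnt target genes tested. Wif1, a secreted protein that binds Wnts, fell by 0.86 on the log2 scale (SE 0.14), at 44.7, 50.2 and 44.5 CPM in Hdac3 CKO and 78.3, 77.3 and 97.5 CPM in WT. Its adjusted p was 0.024 in edgeR's quasi-likelihood test. It was 0.093 without Hdac3 CKO replicate 3, 0.079, 0.073 and 0.081 without WT replicate 1, 2 or 3, 0.249 without both cartilage-rich libraries and 0.053 with a cartilage covariate. Without both cartilage-rich libraries the log2 fold change of Wif1 was -0.72. Apcdd1 was also the single call among 13 other reported Wnt targets (against 1.18% of all tested genes), whose median was 0.33.

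Among the 12 Wnt ligand genes tested of 19, with a median of 0.33, 0 rose (against 0.703% of all tested genes) and 1 fell (against 0.475%). It was Wnt2, at 0.339, 0.376 and 0.256 CPM in Hdac3 CKO and at 2.29, 1.90 and 1.12 CPM in WT. Its log2 fold change was -2.45 ± 0.39 (SE; adjusted p 0.023 in edgeR's quasi-likelihood test), and the adjusted p was 0.091 without Hdac3 CKO replicate 3, 0.082 without WT replicate 1, 0.076 without WT replicate 2 and 0.102 without both cartilage-rich libraries. On log2(RPKM + 1), which understates the change of low genes, it stood at -0.56. Of 19 receptors, co-receptors and R-spondins, 0 rose or fell in edgeR. At an unadjusted p under 0.05 there were 3, where 15.0% of all tested genes had such a p. DESeq2 called 1, Lgr5 (against 4.29% of all tested genes), and limma-voom called 0. The stem cell receptor Lgr5 had 3.80, 5.66 and 5.51 CPM in Hdac3 CKO and 19.4, 10.3 and 6.43 CPM in WT. Its log2 fold change was -1.27 ± 0.36 (SE), and -0.74 without WT replicate 1, its highest library. Fzd10, a Frizzled receptor, stood at 0.56 ± 0.18 (log2 fold change, SE).

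Of 9 genes of the destruction complex and Dishevelled, 0 rose or fell. In edgeR 0 had an unadjusted p under 0.05 (against 15.0% of all tested genes), and DESeq2 or limma-voom called 0. The scaffold Apc stood at -0.49 ± 0.24 and Dvl2, a Dishevelled, at 0.28 ± 0.15 (log2 fold change, SE). Without Hdac3 CKO replicate 1 the log2 fold changes were -0.24 for Apc and 0.12 for Dvl2. Of 13 genes of the beta-catenin transcription complex and the Groucho corepressors, 0 rose or fell in edgeR. There 1 had an unadjusted p under 0.05 (against 15.0% of all tested genes), DESeq2 called 1 (against 4.29%) and limma-voom called 0. The gene was Tle2, a Groucho corepressor, at 21.9, 31.4 and 27.2 CPM in Hdac3 CKO and at 50.0, 39.1 and 48.0 CPM in WT, with a log2 fold change of -0.77 ± 0.17 and, in edgeR's quasi-likelihood test, an adjusted p of 0.064, which was 0.049 without Hdac3 CKO replicate 2 and 0.041 with no filter on low counts. Pygo1, a beta-catenin coactivator, stood at -0.42 ± 0.20, and at -0.22 without Hdac3 CKO replicate 1. Ctnnb1, which encodes beta-catenin, was chosen after its values were seen. It stood at 834, 861 and 793 CPM in Hdac3 CKO and at 670.3, 678 and 739 CPM in WT. The groups of Ctnnb1 did not overlap in CPM, as for 22.5% of all tested genes. Its adjusted p was 0.397 in edgeR's quasi-likelihood test. In RPKM its groups overlapped, with WT replicates 2 and 3 (119.3 and 121.4 RPKM) above Hdac3 CKO replicate 3.

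**Figure D4:**
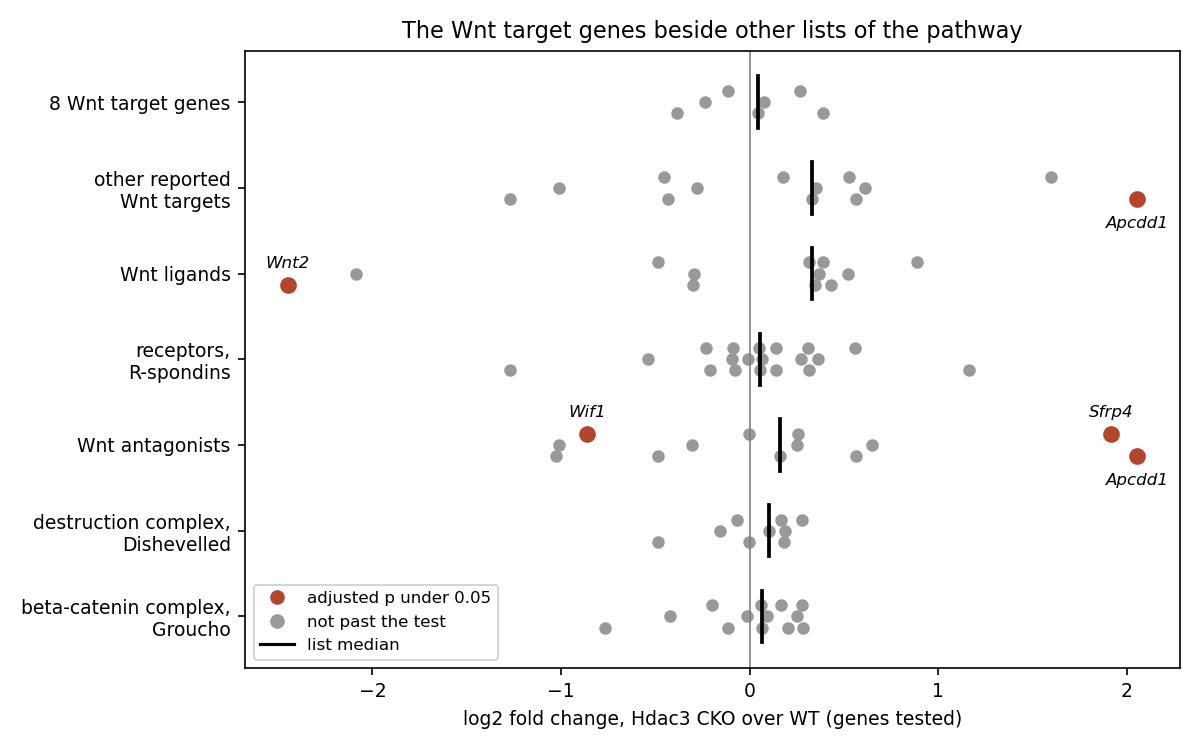
Log2 fold change of Hdac3 CKO over WT for each tested gene of the 8 Wnt target genes and of 6 other Wnt pathway lists, with list medians as black bars and called genes in red with their names. The 7 target genes lie between -0.39 and 0.39, and the 4 called genes are Sfrp4, Apcdd1, Wif1 and Wnt2, with Apcdd1 shown in both of its lists.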

How the data were processed

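For each of the 6 libraries, read counts per gene (whole numbers) and RPKM values were deposited by the authors. The tools named in the submitters' processing notes are bcl2fastq (1.8.4), featureCounts, Subread and TopHat2 (2.1.0), with build mm10. The sources used here give neither the annotation release nor the strand setting nor how reads with several matches were counted. Counts were filtered with filterByExpr, which left 20210 genes holding 99.9% of all counts, scaled by TMM and tested with edgeR 4.0.16 (R 4.3.3) by the robust quasi-likelihood test without covariates, with Benjamini-Hochberg adjustment over all 20210 genes. Standard errors were the log2 fold change divided by the square root of F. The procedure was tested on simulated counts.

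The 15 alternatives were other scaling, no filter, DESeq2 1.42.0, limma-voom (limma 3.58.1), limma on log2(RPKM + 1) and log2(RPKM + 0.1), a cartilage marker covariate, each library left out, and both cartilage-rich libraries left out. The 8 genes and all lists were chosen with earlier results of these data known. The text names all 8 genes, every called gene of the other Wnt lists or else the 2 with the smallest p, and the 5 genes nearest to the member with the smallest p among those with a mean count of at least 100. Lists of markers of osteoblasts, cartilage, hypertrophic cartilage, lymphoid, erythroid, neutrophil, macrophage, muscle, epidermal, endothelial and tendon cells were summed per library.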

Additional observations from a re-analysis of the deposited data

How the results depend on the processing

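The 7 tested Wnt target genes gave 0 calls under all 15 alternatives. No paired analysis was possible because the labels give the genotypes no shared replicate numbers. The count over all genes (238) was 868 in DESeq2, 131 on log2(RPKM + 1), 134 with the cartilage covariate, 0 without both cartilage-rich libraries (4 libraries), and 23 to 175 with 1 library left out. Calls in the other Wnt lists (4) numbered 9 in DESeq2, 0 without both cartilage-rich libraries and 1 to 5 with 1 library left out. Hdac3 stood at -0.71 with the cartilage covariate (adjusted p of 0.068) and -0.65 without both cartilage-rich libraries (0.285), neither called in edgeR's quasi-likelihood test, and at -0.76 to -0.67 with 1 library left out. Library totals moved the median of all genes to -0.18, and higher genes were then 32.6% of calls in place of 59.7%, or 36.6% and 36.9% on log2 RPKM with a pseudocount of 1 and 0.1. Signs turned for Lef1 and Nkd1, neither of which was called. Lef1 stood at -0.14 with library totals and at -0.03 and -0.07 on log2 RPKM, and at -0.08 to 0.21 with 1 library left out. Nkd1 stood at -0.12 with library totals, at -0.04 and -0.05 on log2 RPKM, at -0.10 without both cartilage-rich libraries, and at -0.07 to 0.24 with 1 library left out. Rnf43 ranged over -0.30 to 0.08 with 1 library left out. Less the median of all tested genes in the same fit, Lef1 stood at 0.044 with TMM and 0.040 with library totals. Nkd1 stood at 0.076 and 0.068 in the same way. On log2 RPKM these differences were 0.035 and 0.046 for Lef1 and 0.022 and 0.064 for Nkd1. They reached -0.07 for Lef1 and -0.06 for Nkd1 with 1 library left out. The cause of these changes was not tested. Counting depth limits Sp5 and Rnf43 most.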

Other observations

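The 13 other reported Wnt targets were spread more widely than the 7 tested genes above, in both directions, and all but Apcdd1 missed the adjusted threshold. Their groups did not overlap for 8 of the 13 (5 higher and 3 lower in Hdac3 CKO), where 22.5% of all tested genes did not overlap. The genes named in this paragraph were chosen after their values were seen. Higher in CPM in every Hdac3 CKO library were Bambi, a decoy receptor of the TGF-beta family, at a log2 fold change of 0.52 ± 0.14 (SE), the Wnt deacylase Notum at 0.56 ± 0.18, the cyclin Ccnd1 at 0.33 ± 0.13 and the hyaluronan receptor Cd44 at 0.61 ± 0.21. In RPKM the groups of Ccnd1 overlapped, at 20.7 to 26.1 in Hdac3 CKO and 18.9 to 22.3 in WT, while those of Bambi, Notum and Cd44 did not. The share of all tested genes without overlap in RPKM was not counted. Lower in every Hdac3 CKO library were Lgr5 at -1.27 ± 0.36 (-0.74 without WT replicate 1), the Wnt antagonist Dkk1 at -1.01 ± 0.33 and Trabd2b, a membrane protease that inactivates Wnt proteins, at -0.45 ± 0.16. Their adjusted p ran from 0.124 for Bambi to 0.285 for Ccnd1 in edgeR's quasi-likelihood test. DESeq2 called Lgr5, Bambi, Apcdd1 and Dkk1, where it called 4.29% of all tested genes. Macrophage markers, which summed to 481 to 558 CPM in Hdac3 CKO and 261 to 278 CPM in WT, with 5 of 7 that rose, and neutrophil markers, at 18.2 to 28.1 CPM in Hdac3 CKO and 88.8 to 271 CPM in WT, with 5 of 8 that fell, moved with the genotypes as well. Over all tested genes, 0.703% rose and 0.475% fell. The part of macrophages and neutrophils in these values was not tested.

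Of the other marker lists, hypertrophic cartilage summed to 753 to 1282 CPM in Hdac3 CKO and 494 to 1034 CPM in WT, and endothelial markers to 486 to 616 CPM in Hdac3 CKO and 418 to 528 CPM in WT. Erythroid markers summed to 171 to 214 CPM in Hdac3 CKO and 268 to 440 CPM in WT, and 2 of 9 fell. Tendon markers summed to 799 to 1145 CPM in Hdac3 CKO and 518 to 644 CPM in WT, and 1 of 4 rose. Osteoblast markers summed to 79362 to 111835 CPM in Hdac3 CKO and 51302 to 68096 CPM in WT, and 1 of 10 rose. Epidermal markers summed to 18.0 to 42.7 CPM in Hdac3 CKO and 10.3 to 25.03 CPM in WT. Beside the calls in these lists, 0.703% of all tested genes rose and 0.475% fell.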
